A study of Caenorhabditis elegans with 15 samples.

Results

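Genes of fatty acid synthesis and desaturation in the nematode Caenorhabditis elegans are described here, 10 of the 46929 genes in a table of read counts from whole worms. They are fasn-1 and pod-2, which encode the enzymes that build saturated fatty acids, the desaturase genes fat-1 to fat-7, and their regulator sbp-1. They were chosen by name, and each name was found through the RefSeq symbol of its locus tag. The series asks how overexpression of ACP7, a secreted phosphatase, from the intestine alters the transcriptome, and it compares 3 groups of 5 libraries of poly(A) RNA, each from about 1000 worms. ACP7 worms (labelled ACP7 OE) are strain ABR275, in which a promoter from the gut esterase gene ges-1 drives the phosphatase gene F21A3.11, with a trans-spliced WormScarlet reporter and the unc-54 3′UTR behind it. ACP7-7A worms (labelled ACP7-7A OE) are strain ABR484, whose construct differs in holding F21A3.11-7A, a form without phosphatase activity. Wild type is N2, with no construct. A single strain stands for each construct, so a difference of a strain's background cannot be told apart from an effect of its construct. The labels used here give no age, stage or sex, and no label says that the 5 libraries of a group came from separate cultures, so the p-values measure the spread between these libraries.

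Animals make fatty acids from acetyl-CoA. POD-2, acetyl-CoA carboxylase, makes malonyl-CoA, and FASN-1, fatty acid synthase, extends it to palmitate. Desaturases then add double bonds in turn. FAT-5 acts on palmitoyl-CoA, while FAT-6 and FAT-7 turn stearate into oleate. FAT-2 turns oleate into linoleate, FAT-1 makes omega-3 from omega-6 fatty acids, and FAT-3 and FAT-4 act on the path to arachidonate and eicosapentaenoate. SBP-1 is the worm's sterol regulatory element binding protein, a transcription factor that activates genes of fat synthesis. In worms these genes are known mainly from the intestine, the main fat store, and from the hypodermis.

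Library totals were 39180648 to 58077047 counts in ACP7 worms, 41696722 to 50869260 in ACP7-7A worms and 39050495 to 49452773 in wild type. Levels below are CPM, each gene's share of its library's counts scaled by library total and by TMM (trimmed mean of M values), computed from the deposited counts. F21A3.11 stood at 576 to 645 CPM in ACP7 worms and at 1072 to 1549 CPM in ACP7-7A worms, against 12.96 to 16.6 CPM in wild type, so it was high in each library labelled as an overexpressor, and the constructs differed in RNA level. Defining intestine markers were present in every group: the sum of 12 such genes was 3626 to 4584 CPM in ACP7 worms, 2592 to 3227 CPM in ACP7-7A worms and 2618 to 3962 CPM in wild type, and 52.1% of it came from the protease gene asp-1. ACP7-7A libraries 1 and 2 stood apart from the other 3 of their group, with sperm marker sums (13 genes) of 39.3 and 38.8 CPM against 87.8 to 90.7 CPM, hypodermis marker sums (10 genes) of 764 and 810 CPM against 1346 to 1425 CPM, and body wall muscle marker sums (10 genes) of 3455 and 4043 CPM against 5840 to 6161 CPM. Wild-type library 5 had the lowest intestine, hypodermis and body wall muscle marker sums of its group (2618, 1055 and 3647 CPM, against 3445 to 3962, 1431 to 1576 and 4906 to 5191 CPM in wild-type libraries 1 to 4). Mitochondrial genes took 1.16% to 1.28% of counts in ACP7 worms, 1.33% to 1.52% in ACP7-7A worms and 1.32% to 1.72% in wild type, and ribosomal RNA genes took 0.936% to 2.56%, 1.21% to 2.08% and 2.13% to 3.08% in that order. The mitochondrial share in ACP7 worms lay below that of both other groups, and the ribosomal RNA share in ACP7-7A worms lay below that of wild type, without overlap. Their part in the results below was not tested. ACP7-7A libraries 1 and 2 and wild-type library 5 are called below the ones that stood apart. In bulk samples, fewer cells of a type and less RNA per cell cannot be told apart.

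The genes lie on 5 chromosomes (WBcel235). In the order fat-1 to fat-7, fasn-1, pod-2 and sbp-1, their identifiers in the table are CELE_Y67H2A.8, CELE_W02A2.1, CELE_W08D2.4, CELE_T13F2.1, CELE_W06D12.3, CELE_VZK822L.1, CELE_F10D2.9, CELE_F32H2.5, CELE_W09B6.1 and CELE_Y47D3B.7. The polyunsaturated fatty acid desaturase genes are neighbours on chromosome IV. There fat-4 (9799429 to 9802226) ends 796 bases before fat-3 (9803023 to 9806119), and fat-1 (13315644 to 13318811) ends 5061 bases before fat-2 (13323873 to 13326395), all 4 on the plus strand. fat-6 is on chromosome IV (11913692 to 11915687, minus strand), and fat-5 (17725004 to 17726818, plus strand) and fat-7 (7151353 to 7153146, minus strand) are on chromosome V. fasn-1 is on chromosome I (8975366 to 8986540, minus strand), pod-2 on chromosome II (1136785 to 1152701, plus strand) and sbp-1 on chromosome III (11428367 to 11442566, minus strand). Exons of fat-5, pod-2 and sbp-1 overlap those of a gene on the other strand by 28, 139 and 48 bases. The overlapping genes twk-42, W09B6.4 and idpc-1 had 2616, 10478 and 3150 counts over all libraries, against 48453, 382583 and 33180 counts for fat-5, pod-2 and sbp-1. fat-6 and fat-7 are close paralogs, and how the authors' counting treated reads that match both is not given in the sources used here, so their values are uncertain to that extent. Each of the 10 genes had at least 355 counts in every library and passed the filter on low counts.

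Per kilobase of exon, the 4 highest levels in each group were those of desaturase genes. fat-2 stood highest in each group, at 571 ± 37.7 CPM per kb in ACP7 worms, 485 ± 33.6 in ACP7-7A worms and 493 ± 46.4 in wild type (SD, n = 5 each). fat-6, fat-1 and fat-4 followed in that order, at 398 ± 36.2, 308 ± 9.31 and 204 ± 11.02 CPM per kb in wild type. The synthesis genes were lower, with pod-2 at 83.7 ± 5.48 and fasn-1 at 30.7 ± 1.24 CPM per kb in wild type. sbp-1, the regulator, was at 14.9 ± 1.72 in ACP7 worms, 13.9 ± 1.72 in ACP7-7A worms and 14.3 ± 0.823 CPM per kb in wild type.

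The order of levels differed between the groups at its lower end. fat-7 was 9th in ACP7 worms at 22.1 ± 1.68 CPM per kb and 9th in ACP7-7A worms at 24.3 ± 11.2, but 10th in wild type at 11.8 ± 3.24. Of neighbours in the order, fasn-1 and fat-7 overlapped over the ACP7 libraries, and fat-5 with fat-3 and sbp-1 with fat-7 over the wild-type libraries. In ACP7-7A worms, fat-6 overlapped fat-1, pod-2 overlapped fat-5, fat-5 overlapped fat-3, fasn-1 overlapped fat-7, and fat-7 overlapped sbp-1. The other neighbours were separate.

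**Figure D1:**
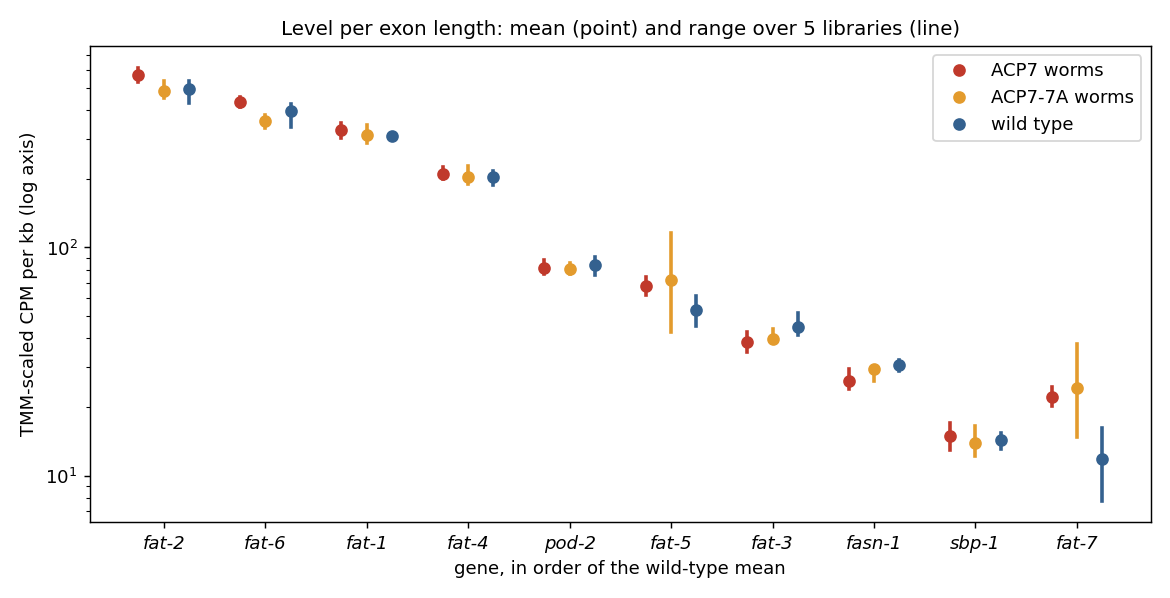
Level of each gene per kilobase of exon, in TMM-scaled CPM per kb on a log axis, with the mean of 5 libraries as a point and the range as a line, in ACP7 worms, ACP7-7A worms and wild type. fat-2 is highest in each group, and fat-7 is last in wild type at 11.8 CPM per kb but above sbp-1 in ACP7 worms at 22.1 CPM per kb.

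Against wild type, ACP7 worms had less of the fatty acid synthase transcript and no other change among the 10 genes that passed the test. The words rose and fell are used of genes whose adjusted p was under 0.05 in edgeR's quasi-likelihood test, adjusted by Benjamini-Hochberg over 15725 genes. fasn-1 fell and 9 did not pass, beside 2.68% of all genes tested that passed in this comparison (1.2% lower). In ACP7-7A worms against wild type 1 of the 10 genes rose and 9 did not pass, beside 6.86% of all genes (2.66% higher). In ACP7 worms against ACP7-7A worms 2 rose and 8 did not pass, beside 8.56% of all genes (4.79% higher). Without the 3 libraries that stood apart, 5 of the 10 genes passed in ACP7 worms against wild type (fat-2, fat-5 and fat-7 higher, fasn-1 and fat-3 lower), beside 15% of all genes. Without them 1 gene passed in ACP7-7A worms against wild type (fat-6, lower), beside 10.7%, and 5 passed between the constructs (fat-2, fat-5, fat-6 and fat-7 higher in ACP7 worms, fasn-1 lower), beside 13.6%. The libraries left out held extremes of fat-5 and fat-7 within their groups, so the calls on these genes depend on that choice. The median log2 fold change of the 10 genes was 0.07, -0.03 and 0.03 in these comparisons, against medians of 0.00 over all genes tested. The first 2 comparisons share the wild-type libraries.

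**Figure D2:**
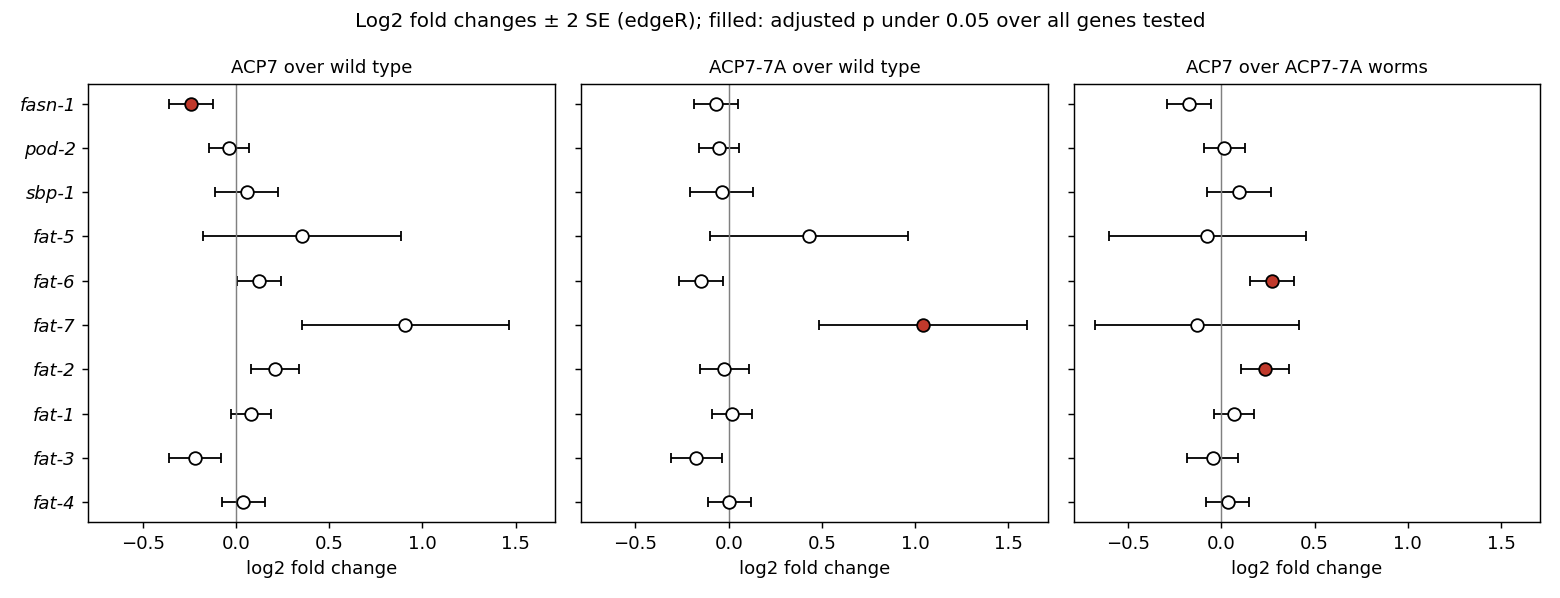
Log2 fold changes of the 10 genes with 2 SE on each side, for ACP7 worms over wild type, ACP7-7A worms over wild type and ACP7 worms over ACP7-7A worms; filled points passed an adjusted p under 0.05 over all genes. fasn-1 is filled in the first panel, fat-7 in the second, and fat-6 and fat-2 in the third, and the widest bars are those of fat-5 and fat-7.

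fasn-1, the fatty acid synthase gene, had 247, 207, 211, 203 and 227 CPM in ACP7 libraries 1 to 5. It had 220.2, 250.1, 256, 255 and 254 CPM in ACP7-7A worms, and 262, 257, 271, 263 and 243 CPM in wild type. All but library 1 of the ACP7 group lay below every wild-type library, and that library lay above wild-type library 5. fasn-1 fell to 219 ± 18.2 CPM in ACP7 worms, against 259 ± 10.5 CPM in wild type (SD, n = 5 each; log2 fold change -0.24, SE 0.06, edgeR adjusted p = 0.024). It was 247 ± 15.1 CPM in ACP7-7A worms, which missed the threshold against wild type (log2 fold change -0.07, SE 0.06, edgeR adjusted p = 0.51). ACP7 worms against ACP7-7A worms did not pass either (log2 fold change -0.17, SE 0.06, edgeR adjusted p = 0.071). The first call was lost without wild-type library 3 (edgeR adjusted p = 0.069) and without ACP7 library 3 or 4 (edgeR adjusted p = 0.11 and 0.053). Body wall muscle marker sums lay at 3593 to 4711 CPM in ACP7 worms and 3647 to 5191 CPM in wild type, and hypodermis marker sums at 1165 to 1344 CPM in ACP7 worms and 1055 to 1576 CPM in wild type. Their part in the fall of fasn-1 was not tested.

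pod-2, the acetyl-CoA carboxylase gene one step before fatty acid synthase, ranged over 524 to 601 CPM in ACP7 worms, 523 to 584 CPM in ACP7-7A worms and 518 to 620.5 CPM in wild type. The groups overlapped throughout, and its log2 fold changes were -0.04 (2 SE interval -0.14 to 0.07) in ACP7 worms against wild type, -0.05 (-0.16 to 0.06) in ACP7-7A worms against wild type and 0.02 (-0.09 to 0.12) between the constructs. sbp-1 ranged over 43.9 to 57.6 CPM in ACP7 worms, 41.4 to 55.8 CPM in ACP7-7A worms and 44.2 to 51.9 CPM in wild type. Its log2 fold changes were 0.06 (-0.11 to 0.23), -0.04 (-0.21 to 0.13) and 0.10 (-0.07 to 0.26) in the same order. None of the edgeR adjusted p-values of sbp-1 was below 0.54.

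**Figure D3:**
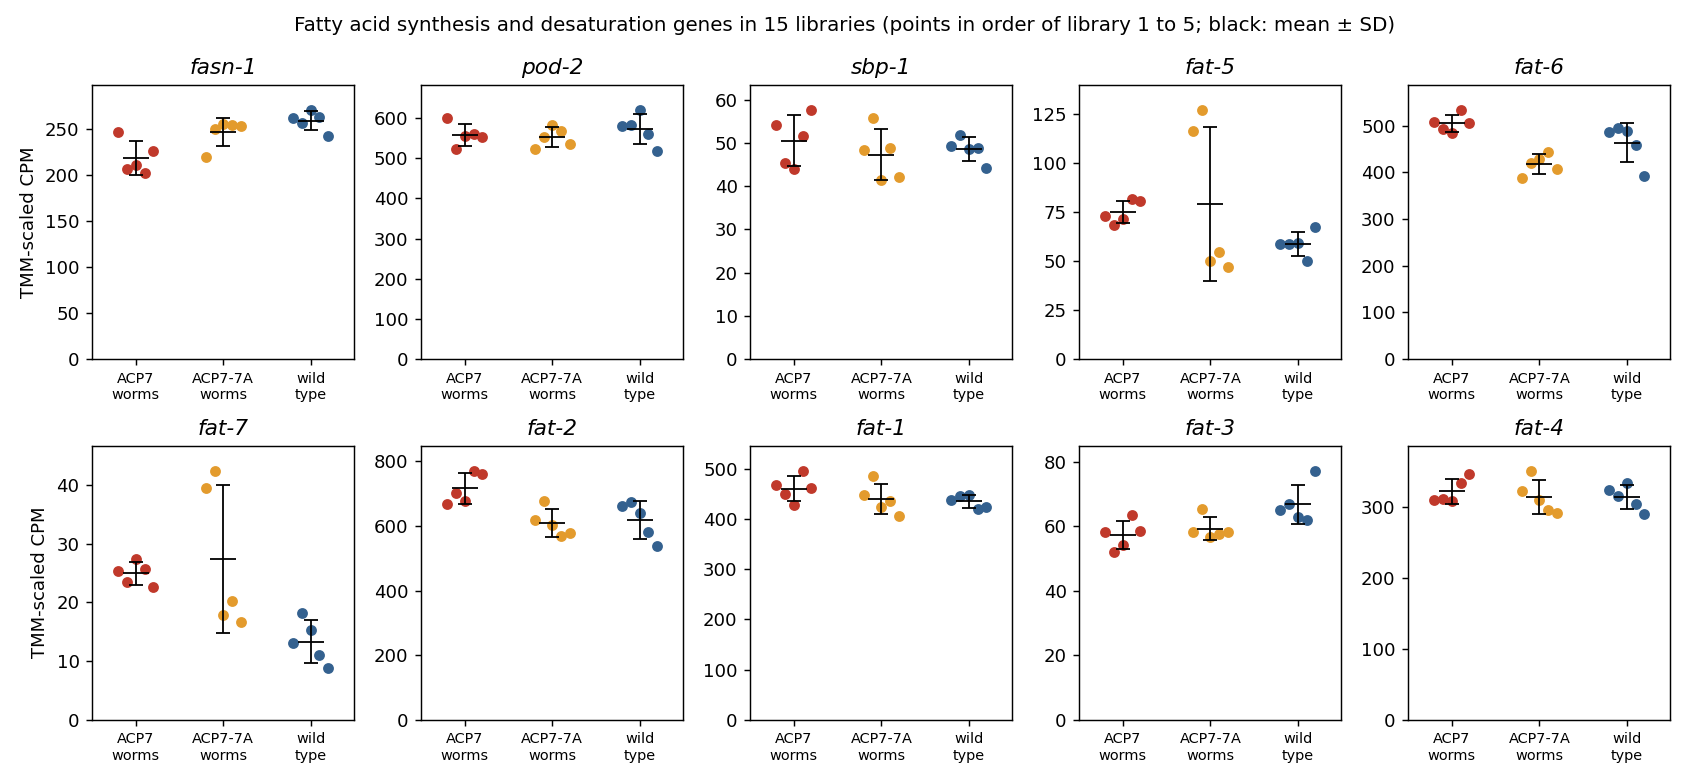
TMM-scaled CPM of each gene in every library, in order of library 1 to 5 within ACP7 worms, ACP7-7A worms and wild type, with the mean and SD of 5 libraries in black. fasn-1 lies lower in ACP7 worms (219 CPM on average, against 259 CPM in wild type), fat-6 does not overlap between ACP7 worms and ACP7-7A worms, and libraries 1 and 2 of ACP7-7A worms stand above the rest in fat-5 and fat-7.

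fat-7, the lesser of the stearoyl desaturase genes by level, was the gene with the largest fold changes of the 10 against wild type. It had 25.4, 23.5, 27.5, 25.7 and 22.7 CPM in ACP7 libraries 1 to 5, against 13.1, 18.2, 15.2, 11.1 and 8.75 CPM in wild type. Every ACP7 library lay above every wild-type library, as for 4.39% of all genes tested. The means were 24.9 ± 1.90 CPM in ACP7 worms and 13.3 ± 3.65 CPM in wild type (SD, n = 5 each), a 1.88-fold difference that did not pass (log2 fold change 0.91, SE 0.28, edgeR adjusted p = 0.12). The fit pooled the spread of all 3 groups, and with ACP7 worms and wild type alone the edgeR adjusted p was 0.000498 at a log2 fold change of 0.91.

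In ACP7-7A worms the fat-7 libraries fell into separate levels. Libraries 1 and 2 had 39.5 and 42.4 CPM and libraries 3 to 5 had 17.8, 20.2 and 16.6 CPM, which overlap the wild-type range of 8.75 to 18.2 CPM. fat-7 rose in ACP7-7A worms to 27.3 ± 12.6 CPM, against 13.3 ± 3.65 CPM in wild type (SD, n = 5 each; log2 fold change 1.04, SE 0.28, edgeR adjusted p = 0.042). The call was lost without ACP7-7A library 1 or 2 (edgeR adjusted p = 0.092 and 0.097), without wild-type library 1, 3, 4 or 5 (0.095, 0.089, 0.10 and 0.054) and without ACP7 library 1, 2, 4 or 5 (0.052, 0.056, 0.054 and 0.053). With the 3 libraries that stood apart left out together, the log2 fold change was 0.33 (edgeR adjusted p = 0.090). Between the constructs fat-7 gave a log2 fold change of -0.13 (SE 0.27, edgeR adjusted p = 0.82), which turned to 0.45 without those 3 libraries (edgeR adjusted p = 0.011). The libraries left out held the highest fat-7 levels of ACP7-7A worms and the lowest of wild type, so the turn depends on that choice.

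fat-5, the palmitoyl-CoA desaturase gene, was also split within ACP7-7A worms. It had 73.2, 68.5, 71.3, 81.6 and 80.7 CPM in ACP7 worms, 116, 127, 50.2, 54.9 and 47.0 CPM in ACP7-7A worms, and 58.5, 58.7, 59.2, 49.9 and 67.5 CPM in wild type. The ACP7 libraries lay above all wild-type libraries, and ACP7-7A libraries 1 and 2 lay above every other library of the series. No comparison passed: the log2 fold changes were 0.35 (SE 0.27, edgeR adjusted p = 0.57) in ACP7 worms and 0.43 (SE 0.27, edgeR adjusted p = 0.36) in ACP7-7A worms against wild type, and -0.08 (SE 0.26, edgeR adjusted p = 0.90) between the constructs. Without the 3 libraries that stood apart, fat-5 was higher in ACP7 worms than in wild type by 0.39 on the log2 scale (edgeR adjusted p = 8.56e-05) and higher than in ACP7-7A worms by 0.56 (edgeR adjusted p = 1.87e-06), while ACP7-7A worms against wild type was at -0.16 (edgeR adjusted p = 0.17). The libraries left out held the highest fat-5 levels of ACP7-7A worms and of wild type, so these values depend on that choice. ACP7-7A libraries 3 to 5 and wild-type libraries 1 to 4 remained in those groups. With ACP7 worms and wild type alone the edgeR adjusted p was 0.0027. Of the 10 genes, fat-5 and fat-7 were the 2 whose ACP7 and wild-type libraries did not overlap, beside 6.73% of all genes tested, and none had ACP7-7A libraries apart from those of wild type, beside 5.04%.

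The libraries with the most fat-5 and fat-7 had the least of the intestine, hypodermis, body wall muscle, neuron and sperm markers among ACP7-7A worms. In ACP7-7A libraries 1 and 2 the intestine marker sums were 2592 and 2796 CPM, against 3018 to 3227 CPM in libraries 3 to 5, and F21A3.11 was at 1072 and 1161 CPM, against 1496 to 1549 CPM. Germline marker sums (12 genes) were 9765 and 10233 CPM there, against 8145 to 8573 CPM, and neuron marker sums (10 genes) 263 and 282 CPM, against 290 to 317 CPM. The same did not hold for fat-7 in wild type. Wild-type library 5, lowest of its group in intestine, hypodermis and body wall muscle markers, had its highest fat-5 (67.5 CPM) but its lowest fat-7 (8.75 CPM). The part of these markers in the fat-5 and fat-7 levels was not tested.

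**Figure D4:**
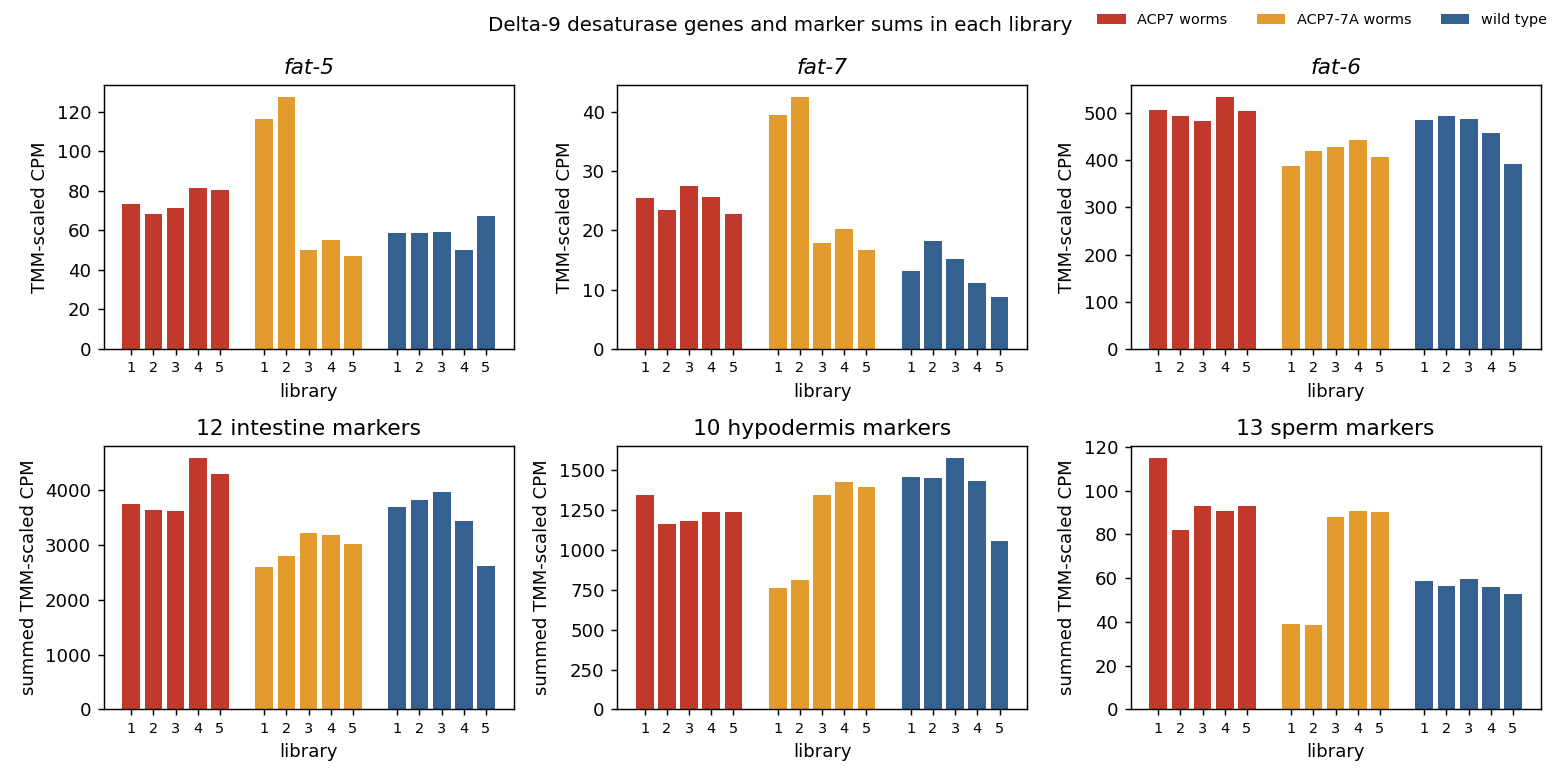
TMM-scaled CPM of fat-5, fat-7 and fat-6 (top) and summed CPM of 12 intestine, 10 hypodermis and 13 sperm markers (bottom) in libraries 1 to 5 of ACP7 worms, ACP7-7A worms and wild type. ACP7-7A libraries 1 and 2 have the highest fat-5 (116 and 127 CPM) and fat-7 (39.5 and 42.4 CPM) bars and the lowest sperm and hypodermis bars, with fat-6 at 388 and 421 CPM there.

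fat-6, the main stearoyl desaturase gene by level, differed between the constructs. It had 507, 493, 484, 534 and 506 CPM in ACP7 worms, against 388, 421, 428, 444 and 408 CPM in ACP7-7A worms, with no overlap, as for 7.08% of all genes tested (4.21% higher). Wild type spanned 392.4 to 495 CPM and overlapped both. fat-6 was higher in ACP7 worms, at 505 ± 18.8 CPM, than in ACP7-7A worms, at 418 ± 21.1 CPM (SD, n = 5 each; log2 fold change 0.27, SE 0.06, edgeR adjusted p = 0.0044). This passed without any one of the 15 libraries. Neither construct passed against wild type (464 ± 42.2 CPM): the log2 fold changes were 0.12 (SE 0.06, edgeR adjusted p = 0.30) in ACP7 worms and -0.15 (SE 0.06, edgeR adjusted p = 0.12) in ACP7-7A worms. Wild-type library 5, with the lowest intestine marker sum of its group, had the lowest fat-6 level of its group, and without it ACP7-7A worms against wild type was at -0.22 (edgeR adjusted p = 0.0042).

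fat-2, the oleate desaturase gene, also rose in ACP7 worms relative to ACP7-7A worms. It had 669, 701, 678, 771 and 761 CPM in ACP7 worms, 618, 676, 603, 569 and 579 CPM in ACP7-7A worms, and 661, 675, 641, 580.0 and 537 CPM in wild type. The means were 716 ± 47.3 CPM in ACP7 worms and 609 ± 42.2 CPM in ACP7-7A worms (SD, n = 5 each; log2 fold change 0.23, SE 0.06, edgeR adjusted p = 0.025). Library 2 of ACP7-7A worms reached into the ACP7 range. The call was lost without ACP7 library 4 or 5 (edgeR adjusted p = 0.063 and 0.058) and without ACP7-7A library 3, 4 or 5 (0.052, 0.059 and 0.053). The comparison of ACP7 worms with wild type missed the threshold (log2 fold change 0.21, SE 0.06, edgeR adjusted p = 0.085). It passed in 4 of 23 alternatives, among them DESeq2 (DESeq2 adjusted p = 0.031) and the 2 groups alone (edgeR adjusted p = 0.039). ACP7-7A worms against wild type missed it too (log2 fold change -0.02, SE 0.06, edgeR adjusted p = 0.87).

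The sum of the intestine markers moved with fat-6 and fat-2 between the constructs. It did not overlap, at 3626 to 4584 CPM in ACP7 worms and 2592 to 3227 CPM in ACP7-7A worms. By the same test 2 of the 12 markers were higher in ACP7 worms, beside 4.79% of all genes tested. The other markers did not pass, and asp-1 gave 52.1% of the sum over all libraries. As a percentage of that sum, fat-6 was 11.6% to 13.6% in ACP7 worms and 13.3% to 15.05% in ACP7-7A worms, and fat-2 was 16.8% to 19.2% in ACP7 worms and 17.9% to 24.2% in ACP7-7A worms, so on this scale the ranges overlapped and the direction turned. On it fat-6 averaged 12.8% ± 0.968 in ACP7 worms and 14.2% ± 0.817 in ACP7-7A worms, and fat-2 averaged 18.1% ± 0.930 in ACP7 worms and 20.8% ± 3.00 in ACP7-7A worms (SD, n = 5 each). Each of the 10 genes averaged lower in ACP7 worms on this scale, also genes level in CPM. For example, pod-2 averaged 14.2% in ACP7 worms and 18.7% in ACP7-7A worms, and sbp-1 averaged 1.27% and 1.62%. The lower sum in ACP7-7A worms raises every percentage there, so the turn is not particular to fat-6 and fat-2. The part of the intestine markers in the higher fat-6 and fat-2 was not tested further. fasn-1 was 4.43% to 6.60% of the sum in ACP7 worms, against 7.93% to 8.95% in ACP7-7A worms and 6.72% to 9.28% in wild type. fat-3 in ACP7 worms was also apart, at 1.36% to 1.56%, against 1.76% to 2.34% in ACP7-7A worms and 1.58% to 2.95% in wild type. fat-1, fat-4 and pod-2 did not overlap between the constructs either, so such separation was not particular to fasn-1. fat-7 was 0.529% to 0.757% in ACP7 worms, against 0.322% to 0.477% in wild type. This scale was chosen after the values were seen.

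The other desaturase genes of polyunsaturated fatty acids passed in no comparison. fat-1, the omega-3 desaturase gene, ranged over 429 to 497 CPM in ACP7 worms, 407 to 487 CPM in ACP7-7A worms and 419.7 to 448 CPM in wild type, with 2 SE intervals of -0.03 to 0.19, -0.09 to 0.12 and -0.04 to 0.17 for the log2 fold change in ACP7 worms and ACP7-7A worms against wild type and between the constructs. fat-4, which encodes an enzyme of the last steps to arachidonate and eicosapentaenoate, ranged over 309 to 347, 292 to 351 and 291 to 334 CPM in ACP7 worms, ACP7-7A worms and wild type, with intervals of -0.08 to 0.15, -0.11 to 0.12 and -0.08 to 0.15. fat-3, which acts before fat-4 on that path, was lower in both constructs without passing. It had 51.9 to 63.5 CPM in ACP7 worms and 56.7 to 65.4 CPM in ACP7-7A worms, against 61.9 to 77.2 CPM in wild type, with log2 fold changes of -0.22 (SE 0.07, edgeR adjusted p = 0.093) and -0.17 (SE 0.07, edgeR adjusted p = 0.13), and of -0.05 (SE 0.07, edgeR adjusted p = 0.74) between the constructs. Without ACP7 library 4 the first of these passed at -0.27 (edgeR adjusted p = 0.036).

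The makeup of the first desaturation step can be read from the shares of fat-5, fat-6 and fat-7 in their summed CPM per kb. fat-7 made up 4.24% ± 0.378 of it in ACP7 worms, 5.21% ± 1.98 in ACP7-7A worms and 2.52% ± 0.529 in wild type (SD, n = 5 each). By library the fat-7 share was 3.82% to 4.84% in ACP7 worms, 7.42% and 7.34% in ACP7-7A libraries 1 and 2, 3.62% to 4.01% in ACP7-7A libraries 3 to 5, and 1.92% to 3.27% in wild type. Both constructs thus lay above wild type in every library, as a description with no test. In CPM, fat-7 in ACP7-7A libraries 3 to 5 (16.6 to 20.2 CPM) overlapped wild type (8.75 to 18.2 CPM), and the share also depends on fat-6. How reads that match both fat-6 and fat-7 were counted is not given, and it bears on these shares. fat-6 exceeded fat-7 by 17.003 to 21.5 times in ACP7 worms, 9.47 to 23.7 times in ACP7-7A worms and 26.2 to 43.3 times in wild type. The sum of the 3 genes was 523 ± 20.4 CPM per kb in ACP7 worms, 454 ± 41.3 in ACP7-7A worms and 463 ± 36.4 in wild type (SD, n = 5 each).

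Within groups, fat-2 and fat-4 varied together. Of the 45 pairs of the 10 genes, only this one passed by both measures of correlation of the deviations from the group means in log2 CPM (Pearson's r = 0.88, permutation p = 0.00013, adjusted over 45 pairs 0.0059; Spearman's rho = 0.85, permutation p = 0.0003, adjusted 0.014; 15 libraries, permuted within groups, two-sided). Without the 2 libraries farthest from the median of fat-2, r was 0.84. Other pairs passed by Pearson's r alone, such as fat-1 with fat-4 (r = 0.78, adjusted permutation p = 0.022, and 0.056 by Spearman's rho). Another was fat-6 with pod-2 (r = 0.77, adjusted permutation p = 0.025, and 0.055 by Spearman's rho). Pearson's r was positive in 35 of the 45 pairs, so shared variation was not particular to fat-2 and fat-4. The within-group r of fat-5 with fat-7 is not given, because the ACP7-7A libraries fell into separate levels. That pair is still among the 45 counted.

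The genes whose levels over the 15 libraries were most like those of fasn-1 were madd-2 (Pearson's r = 0.91 in log2 CPM), F11A5.9 (0.90), tln-1, which encodes talin (0.90), pcca-1, which encodes a subunit of propionyl-CoA carboxylase (0.89), and F32B5.6 (0.89). pod-2 was 1424th in likeness to fasn-1 with r = 0.54. As deviations from the group means, pod-2 and fasn-1 had Pearson's r = 0.73 (permutation p = 0.0014, adjusted over 45 pairs 0.021). Spearman's rho for them was 0.64 (permutation p = 0.017, adjusted 0.083). Those most like fat-7 were Y37H2A.18 (0.89), ZK973.11 (0.88), Y92H12BL.1 (0.87), gex-3 (0.86) and gap-3 (0.86). Over the 12 libraries without the 3 that stood apart, r for these 5 genes was 0.75, 0.73, 0.79, 0.82 and 0.71. fat-5 was 72nd with r = 0.76, or 0.75 over the same 12 libraries.

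Genes on either side of these steps were counted in 4 lists, beside 2.68%, 6.86% and 8.56% of all genes past the threshold in ACP7 worms against wild type, ACP7-7A worms against wild type and between the constructs, and 16.5%, 24.0% and 22.9% at an unadjusted p under 0.05. With 10 to 16 genes a list, 1 gene more or less moves a list across these shares, and nothing is read from its count. Of 12 genes of fatty acid elongation, none passed in ACP7 worms against wild type, with 2 at an unadjusted p under 0.05, 1 member past the threshold by DESeq2 and a median log2 fold change of 0.05. The members with the smallest p there were the elongase genes elo-7 (0.882 ± 0.406 CPM in ACP7 worms and 0.197 ± 0.115 CPM in wild type, edgeR adjusted p = 0.076) and elo-8 (1.32 ± 0.596 CPM in ACP7 worms and 0.554 ± 0.284 CPM in wild type, edgeR adjusted p = 0.18). Sperm marker sums were 81.8 to 115 CPM in ACP7 worms and 52.7 to 59.7 CPM in wild type, without overlap, and the 13 sperm markers had a median log2 fold change of 1.00. elo-7 was at 0.138 and 0.041 CPM in ACP7-7A libraries 1 and 2, where sperm markers were low, and at 0.687 to 1.096 CPM in libraries 3 to 5. The part of sperm RNA in elo-7 and elo-8 was not tested. In ACP7-7A worms against wild type the elongase gene elo-9 fell to 8.01 ± 0.667 CPM, against 10.7 ± 1.63 CPM in wild type (log2 fold change -0.42, edgeR adjusted p = 0.037). The other 11 did not pass, and the call on elo-9 held in 7 of 15 fits with a library left out. Between the constructs hpo-8, which encodes the dehydratase of the elongation cycle, was higher in ACP7 worms (166 ± 4.12 CPM, against 141 ± 9.74 CPM in ACP7-7A worms, log2 fold change 0.23, edgeR adjusted p = 0.020), in 14 of 15 fits with a library left out. All 12 elongation genes had a positive log2 fold change between the constructs, with a median of 0.19, against 0.00 over all genes tested. The 12 intestine markers had a median log2 fold change of 0.25 in the same comparison, and their part in the elongation genes was not tested.

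Of 10 genes that supply carbon, reducing power or electrons, acly-1 passed in 2 comparisons. It encodes ATP citrate lyase, which makes the acetyl-CoA that POD-2 uses. acly-1 had 230.3, 209.7, 206, 198 and 189 CPM in ACP7 worms, 243, 252, 244, 259 and 247 CPM in ACP7-7A worms, and 223, 225, 212, 208 and 216 CPM in wild type. Every ACP7-7A library lay above every library of the other groups. Of all genes tested, 5.04% did not overlap between ACP7-7A worms and wild type, and 7.08% between the constructs. Among the 10 supply genes, 2 lay higher and 1 lower in ACP7-7A worms than in wild type without overlap. acly-1 rose in ACP7-7A worms against wild type (log2 fold change 0.20, SE 0.05, edgeR adjusted p = 0.027). It was lower in ACP7 worms than in ACP7-7A worms (log2 fold change -0.27, SE 0.05, edgeR adjusted p = 0.0020). The first call held in 12 and the second in 15 of 15 fits with a library left out. Between ACP7 worms and wild type it missed the threshold (log2 fold change -0.07, SE 0.05, edgeR adjusted p = 0.57). The cytochrome b5 gene cytb-5.1 was higher in ACP7 worms (64.5 ± 2.07 CPM, against 55.1 ± 3.48 CPM in ACP7-7A worms, edgeR adjusted p = 0.035), in 8 of 15 fits with a library left out. In ACP7 worms against wild type none of the 10 passed, with 1 at an unadjusted p under 0.05 and none by DESeq2. The smallest p-values there belonged to the acetyl-CoA synthetase gene acs-19 (log2 fold change -0.11, edgeR adjusted p = 0.29) and the cytochrome b5 gene cytb-5.2 (log2 fold change 0.11, edgeR adjusted p = 0.37).

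None of 14 genes that regulate the desaturases or membrane fluidity passed in any comparison by edgeR or by DESeq2, with 1, 2 and 2 of them at an unadjusted p under 0.05 in ACP7 worms against wild type, ACP7-7A worms against wild type and ACP7 worms against ACP7-7A worms. Those with the smallest p were nhr-64, a nuclear receptor gene (log2 fold change -0.34, edgeR adjusted p = 0.24), and paqr-2, an adiponectin receptor-like gene of membrane fluidity (0.12, 0.33), in ACP7 worms against wild type. They were fld-1, a membrane fluidity gene (0.24, edgeR adjusted p = 0.14), and paqr-2 (0.14, 0.16) in ACP7-7A worms against wild type. Between the constructs they were fld-1 (-0.22, edgeR adjusted p = 0.19) and the FOXO gene daf-16 (-0.11, 0.20).

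Of 16 genes of glycerolipid assembly and lipid storage, acl-1, an acyltransferase gene, was lower in ACP7 worms (38.5 ± 3.03 CPM, against 45.3 ± 2.73 CPM in ACP7-7A worms, log2 fold change -0.24, edgeR adjusted p = 0.044). That call was lost without any one of 10 of the 15 libraries. No member passed against wild type by edgeR, with 2 in ACP7 worms and 5 in ACP7-7A worms at an unadjusted p under 0.05, and none and 2 by DESeq2. The smallest p-values belonged to acs-3, an acyl-CoA synthetase gene (log2 fold change -0.63, edgeR adjusted p = 0.17), and mboa-2, a membrane-bound O-acyltransferase gene (0.13, 0.26), in ACP7 worms, and to plin-1, the perilipin gene (0.21, 0.074), and acl-1 (0.21, 0.082) in ACP7-7A worms.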

How the data were processed

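Poly(A) RNA of whole worms was sequenced as read pairs of 150 nucleotides. The authors deposited whole-number counts per gene, and per the file headers featureCounts 2.0.6 made them. The submitters' processing notes also list STAR, Trim Galore and WBcel235. How strand, mates and reads with several alignments were handled is not given in these sources. Between 81.3% and 86.1% of counts from 5 to 39 were even, so mates appear to have been counted separately, and halved counts were an alternative. Gene lengths are those the authors deposited in the same table. RefSeq symbols matched 46925 identifiers.

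All 15 libraries entered 1 edgeR 4.0.16 quasi-likelihood fit (R 4.3.3, robust, TMM, filterByExpr, 3 group means, 15725 genes, common biological coefficient of variation 0.21), with Benjamini-Hochberg adjustment over all genes. SEs are those implied by the test. Alternatives were DESeq2 1.42.0, other scalings, no filter, 2-group fits, a replicate block and libraries left out. The procedure was tested on simulated data. Likeness used log2(CPM + 0.1), and member correlations 100000 permutations. Genes named from the 4 lists are up to 4 per list and comparison past the threshold, or else the 2 with the smallest p. Members and lists were chosen with earlier results of these data known. cyb-5.1 and cyb-5.2, 2 names on the supply list, matched no gene in the table.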

Additional observations from a re-analysis of the deposited data

Results flagged for a closer look

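Among the 10 genes in the 3 groups of 5 libraries, 2 of 30 sets held a library whose gap to the nearest of the others exceeded 0.71 of the group's range, where chance flags about 1 in 20. fat-3 in ACP7-7A library 2 was at 65.4 CPM, against 56.7 to 58.1 CPM in the other 4 libraries of that group. fasn-1 in ACP7-7A library 1 was at 220.2 CPM, against 250.1 to 256 CPM in the other 4. Without that library, fasn-1 was lower in ACP7 worms than in ACP7-7A worms by a log2 fold change of -0.21 (edgeR adjusted p = 0.023).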

How the results depend on the processing

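Of 23 alternatives, the higher fat-6 in ACP7 worms than in ACP7-7A worms passed in all 23. The count of the 10 genes past the threshold in ACP7 worms against wild type (1) was 5 without the 3 libraries that stood apart, 3 by DESeq2, 4 with those groups fitted alone, and 0 to 2 with each library left out in turn. In ACP7-7A worms against wild type (1) it was 0 with no filter and 0 with those groups alone, and 0 to 1 with a library left out. Between the constructs (2) it was 5 without the 3 libraries and 1 to 3 with a library left out. Over all genes these counts (422, 1079 and 1346) were 2434, 1747 and 2212 without the 3 libraries, 771 and 1738 by DESeq2 for the first pair, and 1182 for ACP7 worms and wild type alone. They were 256 to 794, 402 to 2248 and 883 to 1901 with a library left out.

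Elongation genes past the threshold in ACP7 worms against wild type (0) became 1 without the 3 libraries, by DESeq2, with no filter and with the groups alone, and 0 to 1 with a library left out. In ACP7-7A worms against wild type (1) they were 3 without the 3 libraries, 2 by DESeq2, 2 with library totals, 0 with the groups alone, and 0 to 2 with a library left out. Between the constructs (1) they were 2 by DESeq2, 2 with library totals and 0 to 2 with a library left out. Regulators (0) became 1 without the 3 libraries in ACP7 worms against wild type and 1 between the constructs, where leaving out a library gave 0 to 1. Supply genes became 1 without the 3 libraries in ACP7 worms against wild type (0), and in ACP7-7A worms against wild type (1) they were 2 without the 3 libraries, 2 with library totals and 0 to 4 with a library left out. Between the constructs (2) supply genes were 1 to 3 with a library left out. Glycerolipid genes in ACP7-7A worms against wild type (0) were 2 by DESeq2 and 0 to 3 with a library left out. Between the constructs (1) they were 3 without the 3 libraries, 0 with library totals, 0 with no filter, 0 with the groups alone and 0 to 1 with a library left out.

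Signs turned for genes near no difference, and also for fat-5 and fat-7, whose values moved further. In ACP7 worms against wild type fat-4 was at a log2 fold change of -0.0021 without the 3 libraries. In ACP7-7A worms against wild type fat-1 was at -0.058 without the 3 libraries, -0.010 with library totals, -0.0033 with no filter and -0.0029 with the groups alone, and fat-4 was at -0.10, -0.024, -0.017 and -0.016 under the same settings. fat-5 there was at -0.16 without the 3 libraries. Between the constructs fat-5 was at 0.56, fat-7 at 0.45 and pod-2 at -0.019 without the 3 libraries. The first 2 of these passed (edgeR adjusted p = 1.87e-06 and 0.011). With a library left out, the log2 fold changes spanned -0.0020 to 0.069 for fat-4 and -0.0069 to 0.12 for sbp-1 in ACP7 worms against wild type. In ACP7-7A worms against wild type they spanned -0.024 to 0.041 for fat-1, -0.044 to 0.027 for fat-4 and -0.11 to 0.0067 for sbp-1. Between the constructs they spanned -0.22 to 0.16 for fat-5, -0.27 to 0.083 for fat-7 and -0.011 to 0.042 for pod-2. The cause of these changes was not tested.

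The labels number the libraries 1 to 5 in each group, but same-numbered libraries deviated together with correlations of only -0.14 to 0.11. In the 3 comparisons 2, 1 and 2 of 10 libraries correlated best with their own number. These values show no sign of pairing by number, but they cannot tell whether same-numbered libraries were handled together. With the replicate block, fasn-1 in ACP7 worms against wild type had an edgeR adjusted p of 0.066 and fat-7 of 0.043. Between the constructs, fat-5 then had a log2 fold change of 0.014 (edgeR adjusted p = 0.99). In ACP7-7A worms against wild type, 633 genes passed. With the block, elongation genes past the threshold were 0 in ACP7-7A worms against wild type, and between the constructs supply genes were 1 and glycerolipid genes 0.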
